A study of Danio rerio with 2 samples.

Results

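Genes of the Notch pathway and of the Her/Hey family were measured in zebrafish embryo cells sorted by EGFP, with the EGFP-positive fraction set against the EGFP-negative one. They were taken by symbol: every row whose name begins as a notch, delta (dla, dlb, dlc, dld, dll), jagged, her, hes, hey, helt, lfng, mib, deltex, numb, rbpj or mastermind gene and that names a single gene. The rule found 44 of the 14428 rows of the expression table, and none of the rows in which several symbols are joined held another. Its letters also took in mibp and mibp2, named for a muscle integrin-binding protein and not part of the pathway, which leaves 42 genes to describe. Of the 44, 36 reached 1 FPKM or more in either library and were considered further.

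Both fractions came from crestin_1kb:EGFP transgenic embryos at the stage given as 15 SS, where a stretch of the crestin gene drives EGFP. The EGFP-positive library was made from about 5500 sorted cells labelled as crestin-positive neural crest, and the EGFP-negative library from about 100000 sorted cells labelled as crestin-negative, which are the rest of the embryo. The transgene marks cells by the activity of that stretch, and the number of embryos behind each fraction is not given in the sources used here. With a single library per fraction there are no replicates, so values carry no error, no difference was tested, and differences are described by size only.

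In Notch signalling, a Delta or Jagged ligand on 1 cell binds a Notch receptor on its neighbour. The receptor is then cut by an ADAM protease and by the gamma-secretase complex, and its released intracellular domain joins the DNA-binding protein RBPJ and mastermind to switch on target genes. Many of the targets are her, hes and hey genes, basic helix-loop-helix repressors. In the zebrafish embryo the pathway holds back neurogenesis by lateral inhibition, runs the oscillating clock of the presomitic mesoderm that sets the somites, and guides artery formation. Several her genes, such as her3, her5 and her9, also act in patterning without depending on Notch in the way the clock genes do.

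Values are FPKM, the authors' fragment counts divided by gene length and scaled by library, so levels compare between genes of different length. How the libraries were scaled to each other is not given. A log2 ratio is log2(FPKM + 1) in EGFP-positive minus log2(FPKM + 1) in EGFP-negative cells, and a gene was called when it was 2-fold or more apart by this measure, which understates the ratio of low genes. Folds given as ratios are plain quotients of the deposited values. Of 8 measured neural crest markers, 7 were called higher, with summed levels of 980 FPKM in EGFP-positive and 207 FPKM in EGFP-negative cells; crestin itself was not analysed here. Of 6 epidermis markers 2 were called higher and the others lay inside the limits, as given beside her11 and her5. Of 4 blood markers 2, spi1b and lcp1, were called lower. The blood markers summed to 1182 FPKM in EGFP-positive and 2393 FPKM in EGFP-negative cells. Nearly all of both sums is hbae1, which was not called, at 1157 FPKM in EGFP-positive and 2287 FPKM in EGFP-negative cells. An exact 0 can be a lost estimate. Of the 1174 genes at 50 to 100 FPKM in EGFP-negative cells, 7.07% were listed at 0 in EGFP-positive cells, against 3.91% the other way round. Of the 3529 genes at 10 to 50 FPKM in EGFP-negative cells, 13.3% were listed at 0 in EGFP-positive cells. Of the 3456 genes at that level in EGFP-positive cells, 9.14% were listed at 0 in EGFP-negative cells. At each of these levels a 0 was thus more frequent in EGFP-positive cells. At 1 to 10 FPKM these shares were higher, with 28.0% of genes measured in EGFP-negative cells at 0 in EGFP-positive cells, and 20.8% of those measured in EGFP-positive cells at 0 in EGFP-negative cells, which covers the level of her5, her8.2 and numbl.

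Lower members outnumbered higher ones. Of the 36 considered, 4 were at least 2-fold higher in EGFP-positive cells, or 11.1%, where 22.9% of all 9685 genes were higher. Another 13 were at least 2-fold lower, or 36.1%, where 26.5% of all genes were lower, and 19 lay between. Among genes above 0 in both libraries, 1 of 29 members was higher and 9 were lower, against 17.8% higher and 16.5% lower over 7449 such genes. The median log2 ratio of the considered members was -0.31, beside -0.04 for all genes. With 1 library per fraction these shares describe the 2 libraries.

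**Figure D1:**
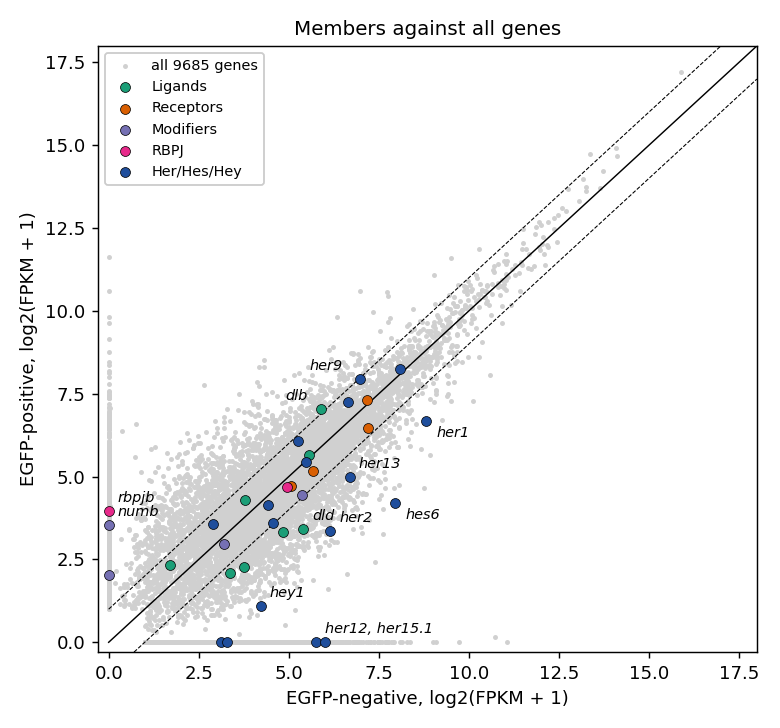
Level of each gene in EGFP-positive cells (vertical axis) against EGFP-negative cells (horizontal axis), both as log2(FPKM + 1), for all 9685 genes considered (grey) and for the members coloured by role; dashed lines mark 2-fold. Of the genes above 0 in both, hes6, hey1, her2 and her1 lie farthest below the lower dashed line among the members, and dlb lies above the upper one.

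The ligands divided by paralogue. All 8 were above 0 in both libraries. Of them 1 was called higher and 4, or 50%, lower, where 17.8% of all such genes were higher and 16.5% lower. Dlb, a Delta ligand of newborn neurons, was the most abundant ligand in both, at 131 FPKM in EGFP-positive and 58.9 FPKM in EGFP-negative cells, a 2.22-fold ratio and a log2 ratio of 1.14. It was the single ligand called higher, and its log2 ratio was 0.97, just under the call, when the libraries were scaled to equal sums without the small nuclear RNA rn7sk. Its relative dla, which acts in neurogenesis, was at 18.6 FPKM in EGFP-positive and 12.9 FPKM in EGFP-negative cells, inside the 2-fold limits.

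The Delta ligands of the somite clock were lower. Dlc, whose transcript oscillates in the presomitic mesoderm, was at 9.02 FPKM in EGFP-positive and 27.9 FPKM in EGFP-negative cells. Dld, its partner there and a ligand of neural cells too, was at 9.78 FPKM in EGFP-positive and 41.1 FPKM in EGFP-negative cells, with a log2 ratio of -1.97. Together dlc and dld made up 8.23% of the summed ligand FPKM in EGFP-positive and 32.7% in EGFP-negative cells, while dla and dlb made up 65.3% in EGFP-positive and 34.02% in EGFP-negative cells. The endothelial ligand dll4 was low, at 4.003 FPKM in EGFP-positive and 2.29 FPKM in EGFP-negative cells.

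Of the Jagged ligands, the duplicates jag1a and jag1b were both called lower. Jag1a was at 3.81 FPKM in EGFP-positive and 12.4 FPKM in EGFP-negative cells, and jag1b, which patterns the facial skeleton, at 3.29 FPKM in EGFP-positive and 9.42 FPKM in EGFP-negative cells. Jag2, now named jag2b, was the second most abundant ligand in both libraries, at 49.4 FPKM in EGFP-positive and 46.2 FPKM in EGFP-negative cells. The 8 ligands summed to 229 FPKM in EGFP-positive and 211 FPKM in EGFP-negative cells, so the totals lay close while the makeup differed.

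No receptor was called, where 22.9% of all genes were higher and 26.5% lower. Notch3 was at 159 FPKM in EGFP-positive and 143 FPKM in EGFP-negative cells, and notch1a at 86.8 FPKM in EGFP-positive and 145 FPKM in EGFP-negative cells. Notch1b was at 35.1 FPKM in EGFP-positive and 49.7 FPKM in EGFP-negative cells, and notch2 at 25.3 FPKM in EGFP-positive and 32.6 FPKM in EGFP-negative cells. All 4 receptors were thus present in both fractions. Notch3 made up 52.0% of the summed receptor FPKM in EGFP-positive cells and 38.7% in EGFP-negative cells, and notch1a 28.3% in EGFP-positive and 39.1% in EGFP-negative cells. In EGFP-negative cells the levels of notch1a and notch3 lay side by side.

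**Figure D2:**
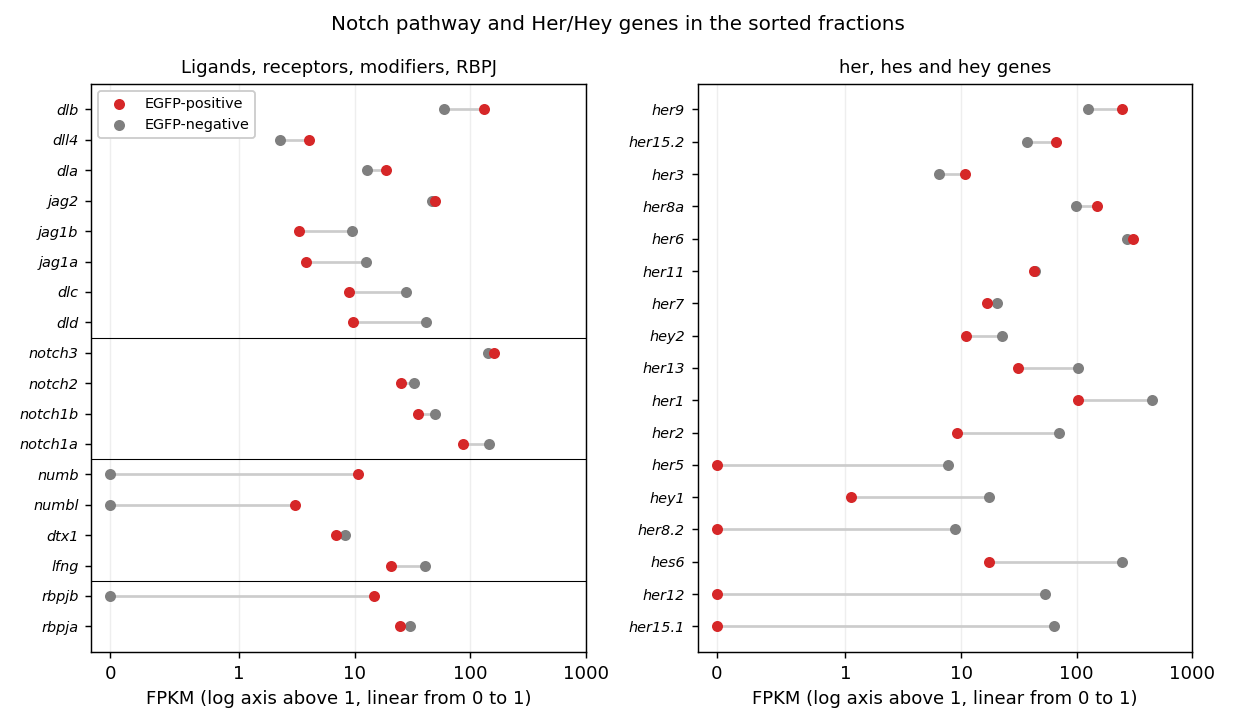
FPKM of each Notch pathway and Her/Hey gene above 0 in either library, in EGFP-positive (red) and EGFP-negative (grey) cells, on an axis that is logarithmic above 1 FPKM and linear below; lines join the 2 values of a gene, horizontal rules part ligands, receptors, modifiers and RBPJ genes, and each point is 1 library. The receptors lie close together, while hes6, at 17.5 FPKM in EGFP-positive and 247 FPKM in EGFP-negative cells, is far apart.

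Among the genes that tune the signal, lfng, a fringe glycosyltransferase that changes which ligands a receptor answers, was at 20.8 FPKM in EGFP-positive and 40.3 FPKM in EGFP-negative cells. Its log2 ratio of -0.92 was inside the limits as deposited, and -1.09 with equal sums without rn7sk. The deltex gene dtx1, whose protein binds the intracellular domain of Notch, was at 6.86 FPKM in EGFP-positive and 8.21 FPKM in EGFP-negative cells. Numb and numbl, adaptors that antagonise Notch and are shared unequally between daughter cells, were measured in EGFP-positive cells alone, at 10.7 and 3.05 FPKM, and were listed at 0 in EGFP-negative cells. Both are called higher against a value of 0. The ubiquitin ligase genes mib (now mib1) and mib2, needed for ligand endocytosis, were listed at 0 in both libraries. As an exact 0 can be a lost estimate, these values do not show that their transcripts were absent.

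The 2 RBPJ genes differed from each other. Rbpja was at 24.7 FPKM in EGFP-positive and 29.9 FPKM in EGFP-negative cells. Rbpjb was at 14.6 FPKM in EGFP-positive cells and listed at 0 in EGFP-negative cells. No mastermind gene was among the members. Of the 4 members called higher, numb, numbl and rbpjb thus rest on a listed 0, and dlb alone was above 0 in both libraries.

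The her, hes and hey genes held most of the lower members, though the share lower among ligands, 4 of 8, was close to theirs. Of 22, 17 were considered, 9 were at least 2-fold lower and none was higher, where 26.5% of all genes were lower and 22.9% higher. Of the 13 above 0 in both libraries 5 were lower, where 16.5% of all such genes were. Another 5 were listed at 0 in both libraries: helt, her4.2, her4.3, hes2.2 and heyl. Her4.2 and her4.3 belong to a tandem set of near-identical copies between which reads can be lost. The median log2 ratio was -1.70 over the 17, and -0.26 over those 13, so its size depends on the 4 genes listed at 0 in EGFP-positive cells. With the related copies her15.1 and her15.2 summed, 8 were lower and the median was -1.34. The summed level was 1010 FPKM in EGFP-positive and 1643 FPKM in EGFP-negative cells.

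Genes known from the segmentation clock were among the lower members. Hes6, a non-oscillating partner of the clock repressors in zebrafish, was at 17.5 FPKM in EGFP-positive and 247 FPKM in EGFP-negative cells, 14.1-fold higher in EGFP-negative cells. Her1, a core clock repressor, was at 102 FPKM in EGFP-positive and 448 FPKM in EGFP-negative cells, a log2 ratio of -2.13. Even so, her1 in EGFP-positive cells exceeded 84.5% of the genes above 0 there. Her7, the partner of her1 and its neighbour on the chromosome, was at 16.9 FPKM in EGFP-positive and 20.4 FPKM in EGFP-negative cells and was not called.

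Her2, a relative of hes5, was at 9.21 FPKM in EGFP-positive and 70.3 FPKM in EGFP-negative cells. Her12 was listed at 0 in EGFP-positive cells and at 53.2 FPKM in EGFP-negative cells. Her15.1 and her15.2 are adjacent and closely related copies whose reads can be split unequally: her15.1 was listed at 0 in EGFP-positive and at 63.4 FPKM in EGFP-negative cells, while her15.2 was at 66.4 FPKM in EGFP-positive and 37.0 FPKM in EGFP-negative cells. Their sum was 66.4 FPKM in EGFP-positive and 100.4 FPKM in EGFP-negative cells, a log2 ratio of -0.59, so the call on her15.1 does not hold for the pair.

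The clock genes were taken here as 9 genes: her1, her2, her7, her12, her15.1, her15.2, her4.2, her4.3 and hes6. Her11, given below with her5 and not called, was not in this group. Of the 9, 7 were considered, of which 5 were lower and 2 lay between, beside 26.5% lower among all genes. With her15.1 and her15.2 summed, 4 of 6 were lower, and 3 of the 5 above 0 in both libraries were. Their levels summed to 212 FPKM in EGFP-positive and 939 FPKM in EGFP-negative cells. Most markers of presomitic mesoderm and somites were lower too. Of 14 such markers 11 were considered and 10 were called lower, with sums of 97.1 FPKM in EGFP-positive and 597 FPKM in EGFP-negative cells. Mespba, ripply1 and ripply2 were at 0 in EGFP-positive cells alone, mespaa, mespab and mespbb were at 0 in both, and msgn1 was at 27.7 FPKM in EGFP-positive and 29.4 FPKM in EGFP-negative cells. The part of these cells in the her values was not tested, and in sorted bulk cells fewer cells of a type cannot be told apart from less RNA per cell.

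The abundant her genes of neural and ectodermal patterning were not lower. Her6, a zebrafish relative of Hes1, was the most abundant member in EGFP-positive cells, at 304 FPKM, against 271 FPKM in EGFP-negative cells. Her9, another relative of that family and known in zebrafish from patterning of the ectoderm, was at 247 FPKM in EGFP-positive and 125 FPKM in EGFP-negative cells, a log2 ratio of 0.98 that lay just inside the limit. Her8a, expressed in the nervous system, was at 151 FPKM in EGFP-positive and 98.4 FPKM in EGFP-negative cells. Her6, her9 and her8a together made up 69.5% of the summed her, hes and hey FPKM in EGFP-positive cells and 30.1% in EGFP-negative cells. Her1 and hes6 together made up 11.8% in EGFP-positive and 42.3% in EGFP-negative cells.

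Her11 and her5, neighbouring genes of the midbrain-hindbrain boundary, differed from each other. Her11 was at 42.5 FPKM in EGFP-positive and 43.3 FPKM in EGFP-negative cells. Her5, listed at 0 in EGFP-positive and at 7.64 FPKM in EGFP-negative cells, was called lower at a low level. Her3, a repressor of neurogenesis in the neural plate, was at 10.8 FPKM in EGFP-positive and 6.44 FPKM in EGFP-negative cells. Of 12 neural tube markers 11 were considered, 2 were called higher and 5 lower, beside 22.9% higher and 26.5% lower among all genes. They summed to 345 FPKM in EGFP-positive and 489 FPKM in EGFP-negative cells. Most of that gap is dbx1b, listed at 0 in EGFP-positive and at 117 FPKM in EGFP-negative cells. Ascl1a was at 0 in EGFP-positive cells alone, neurog1 in EGFP-negative cells alone, and olig2 in both libraries. The part of neural cells was not tested. Of 6 epidermis markers 2 were called higher and none lower, none was at 0, and they summed to 573 FPKM in EGFP-positive and 407 FPKM in EGFP-negative cells. The 2 were epcam, at 97.4 FPKM in EGFP-positive and 22.3 FPKM in EGFP-negative cells, and cdh1, at 139 FPKM in EGFP-positive and 60.1 FPKM in EGFP-negative cells. The other 4 were inside the limits and went both ways. In EGFP-positive and EGFP-negative cells, krt4 was at 185 and 134 FPKM and krt5 at 54.4 and 50.1 FPKM. Cyt1 was at 72.5 and 110 FPKM and tp63 at 24.6 and 30.6 FPKM, in the same order. The part of epidermal cells was not tested either.

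**Figure D3:**
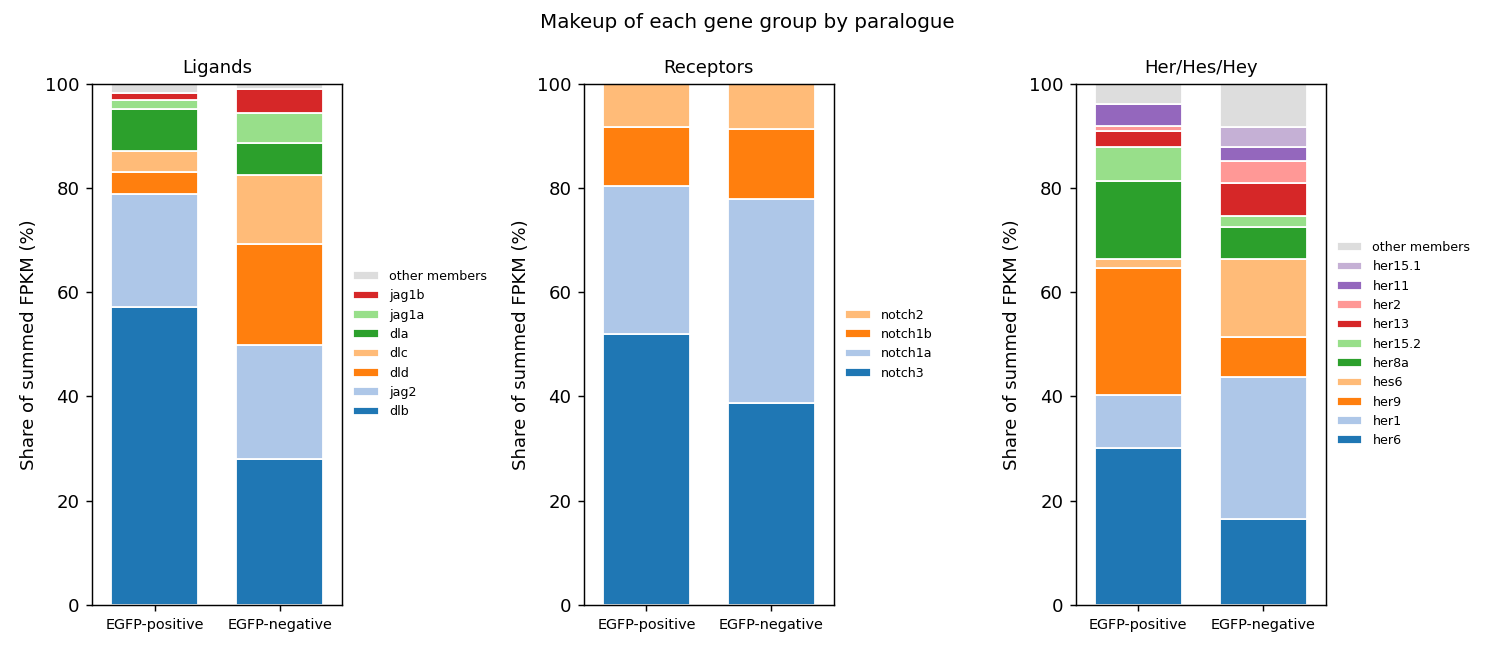
Share of each gene in the summed FPKM of its group, in percent, for ligands, receptors and her, hes and hey genes, in EGFP-positive (left bar) and EGFP-negative (right bar) cells, with small members pooled in grey. Dlb takes 57.2% of the ligand sum in EGFP-positive cells and 27.9% in EGFP-negative cells, and her1 takes 10.1% of the her, hes and hey sum in EGFP-positive cells and 27.3% in EGFP-negative cells.

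The remaining family members were lower or inside the limits. Her13 was at 30.8 FPKM in EGFP-positive and 103 FPKM in EGFP-negative cells, a log2 ratio of -1.70. Its chromosomal neighbour her8.2 was listed at 0 in EGFP-positive and at 8.80 FPKM in EGFP-negative cells. Of the hey genes, which act in heart and vessel development, hey1 was at 1.12 FPKM in EGFP-positive and 17.6 FPKM in EGFP-negative cells, and only 2.46% of the genes above 0 in EGFP-positive cells were lower there. Hey2, the gridlock gene of the artery, was at 11.1 FPKM in EGFP-positive and 22.8 FPKM in EGFP-negative cells, a log2 ratio of -0.98 just inside the limit and -1.14 with equal sums without rn7sk. Of 8 endothelial markers 6 were called lower, where 26.5% of all genes were, fli1a and lmo2 lay between, and none was at 0. They summed to 211 FPKM in EGFP-positive and 851 FPKM in EGFP-negative cells. The endothelial ligand dll4 went the other way, inside the limits, at 4.003 FPKM in EGFP-positive and 2.29 FPKM in EGFP-negative cells. The part of endothelial cells was not tested.

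**Figure D4:**
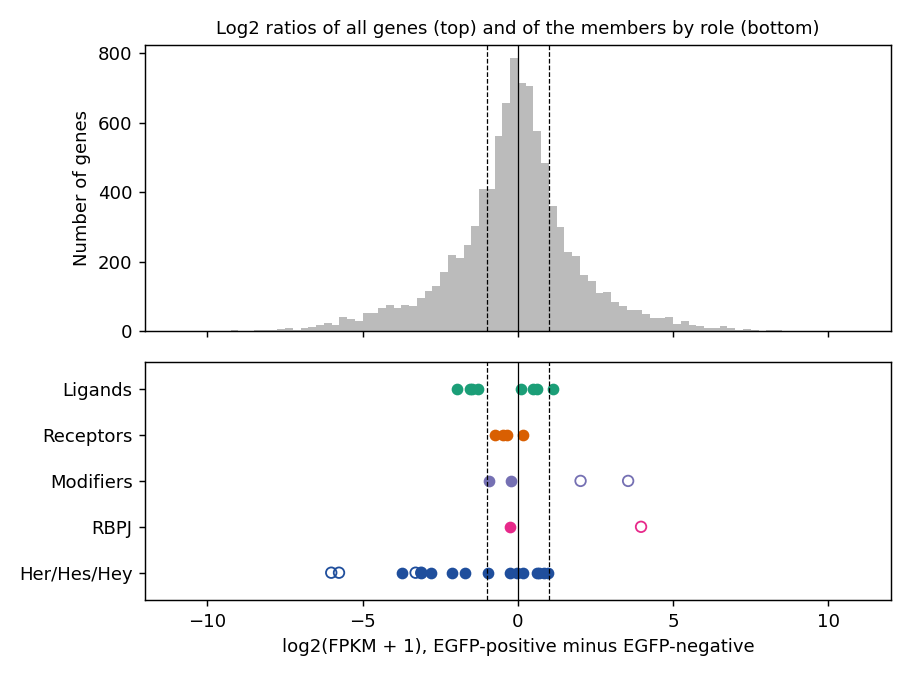
Number of genes by log2 ratio, EGFP-positive minus EGFP-negative, for all genes considered (top), and the ratio of each member by role (bottom), where open circles are genes listed at 0 in 1 library and dashed lines mark 2-fold. The her, hes and hey genes reach from -6.01 to 0.98 and the receptors from -0.73 to 0.15.

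Other genes of the pathway were found on both sides. Of a list of 66, 42 were matched in the table, some through older symbols, and 36 were considered. Of these 6, or 16.7%, were higher and 9, or 25.0%, were lower, near the shares of all genes, and the median log2 ratio was 0.03. Scaled to equal sums without rn7sk, the list held 4 higher and 11 lower genes and its median was -0.14. With that scaling 20.69% of all genes were higher and 29.22% lower, and their median was -0.20. The furin gene furina, whose product makes the first cut of the receptor, was at 34.6 FPKM in EGFP-positive and 10.1 FPKM in EGFP-negative cells. Its duplicate furinb, at a low level, went the other way inside the limits, at 1.53 FPKM in EGFP-positive and 3.98 FPKM in EGFP-negative cells. The ADAM10 duplicates, which cut at the cell surface, went opposite ways: adam10b was at 32.7 FPKM in EGFP-positive and 9.499 FPKM in EGFP-negative cells, and adam10a at 36.1 FPKM in EGFP-positive and 97.0 FPKM in EGFP-negative cells.

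Of the gamma-secretase subunit genes, ncstn, for the nicastrin subunit that receives the substrate, was at 22.5 FPKM in EGFP-positive and 104 FPKM in EGFP-negative cells. The subunit genes psenen and aph1b were inside the limits. Genes of sugar addition to Notch were lower where called: poglut1 was at 16.2 FPKM in EGFP-positive and 64.8 FPKM in EGFP-negative cells, and the fringe gene rfng at 3.94 FPKM in EGFP-positive and 13.8 FPKM in EGFP-negative cells. Pofut1 went the other way inside the limits, at 5.44 FPKM in EGFP-positive and 2.82 FPKM in EGFP-negative cells.

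Among regulators and outputs outside the her family, nrarpa, a Notch target that feeds back on the pathway, was at 199 FPKM in EGFP-positive and 88.9 FPKM in EGFP-negative cells, a log2 ratio of 1.15 that was 0.98, under the call, with equal sums without rn7sk. Its duplicate nrarpb was at 26.4 FPKM in EGFP-positive and 15.05 FPKM in EGFP-negative cells, inside the limits. The proneural genes that Notch represses were mixed: ascl1b was at 19.2 FPKM in EGFP-positive and 2.39 FPKM in EGFP-negative cells, neurog1 at 40.9 FPKM in EGFP-positive cells and listed at 0 in EGFP-negative cells, and ascl1a listed at 0 in EGFP-positive and at 6.77 FPKM in EGFP-negative cells. All of these are also on the neural tube marker list, where ascl1b and neurog1 were the 2 called higher. The neuralized gene neurla, for a ligand-binding ubiquitin ligase, was listed at 0 in EGFP-positive and at 19.98 FPKM in EGFP-negative cells. The corepressor gene ctbp2 was at 7.23 FPKM in EGFP-positive and 19.2 FPKM in EGFP-negative cells.

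The vascular gene egfl7, which is also on the endothelial marker list, was at 33.6 FPKM in EGFP-positive and 134 FPKM in EGFP-negative cells. The Groucho corepressor genes, whose products bind the tail of Her proteins, were all inside the limits, with tle2 at 150 FPKM in EGFP-positive and 85.3 FPKM in EGFP-negative cells. Gro1 was at 104 FPKM in EGFP-positive and 75.6 FPKM in EGFP-negative cells, and gro2 at 37.1 FPKM in EGFP-positive and 38.7 FPKM in EGFP-negative cells. The deacetylase gene hdac1, of the same repressor complexes, was at 135 FPKM in EGFP-positive and 134 FPKM in EGFP-negative cells.

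**Figure D5:**
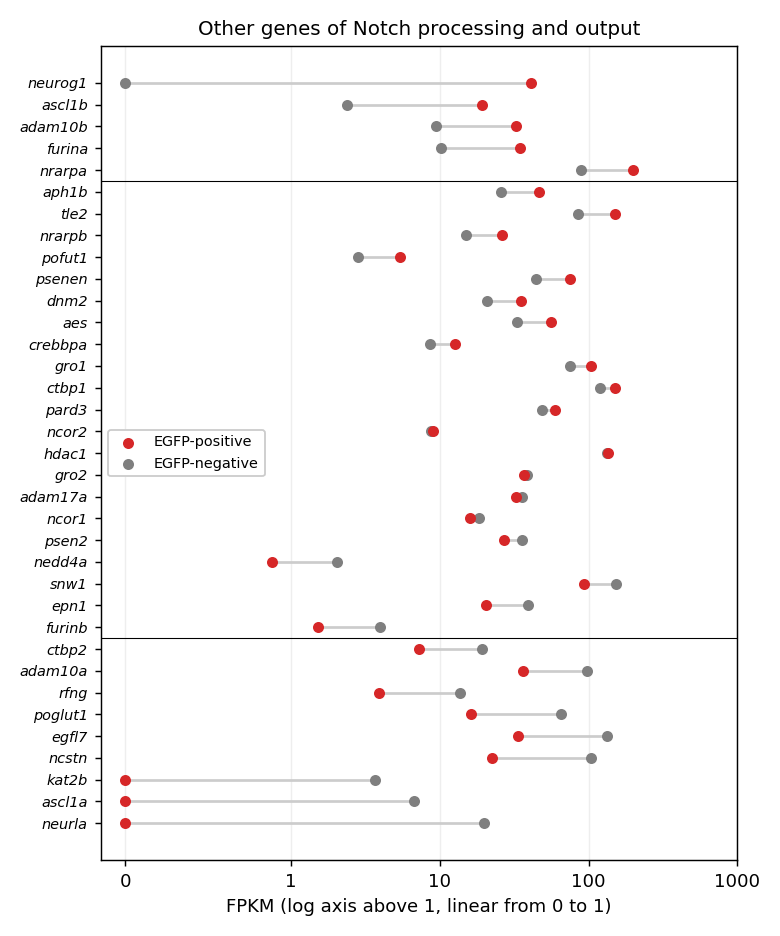
FPKM of 35 of the other pathway genes considered, in EGFP-positive (red) and EGFP-negative (grey) cells, sorted by log2 ratio, on an axis that is logarithmic above 1 FPKM and linear below; horizontal rules part the 5 higher, the 21 between and the 9 lower genes plotted. Neurog1 is at the top and neurla at the bottom, each listed at 0 in 1 library.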

How the data were processed

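RNA was measured in 2 libraries, 1 per sorted fraction. Libraries were made from ribosome-depleted total RNA with a low-input kit, per the labels' protocols. The authors deposited FPKM values, 1 row per gene symbol; the submitters' processing notes name cutadapt, TopHat2 2.0.11, Cufflinks 2.2.1 and the build Zv9, with options, annotation and between-library scaling not given. FPKM carries no counts, so depth is unknown and no interval is given. Log2 ratios used a pseudocount of 1 FPKM, genes at 1 FPKM or more in either library and a 2-fold call, and were checked on simulated data (pandas 2.3.3). No gene was tested. Members at 10 FPKM or more in either library were given in full, as were other pathway genes of that level past the call. Current names and gene neighbours came from a RefSeq table of GRCz12tu, where 44 of 44 members matched. The members, their groups and the lists were chosen with earlier results of these data known. Of the other pathway genes, 1 is counted but not reported here. No sequences were used here.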

Additional observations from a re-analysis of the deposited data

How the results depend on the processing

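Alternatives covered the pseudocount, the minimum level, genes at 0, scaling, the size of the call and joined rows. The pseudocount, the minimum level, leaving out genes at 0 and the size of the call cannot change the sign of a ratio. No joined row held a member. Scaling could change the sign only for members above 0 in both libraries. The 17 called members lay too far from 0 for either scaling to do so. With equal sums without rn7sk, the uncalled jag2, notch3 and her6 went from 0.09, 0.15 and 0.17 to -0.075, -0.019 and -0.005. A minimum of 20 FPKM left 1 higher and 8 lower members, where 20.25% of all genes at that level were higher and 21.35% lower. It also left a her, hes and hey median of -0.98, and 5 higher and 4 lower other pathway genes. A minimum of 5 FPKM gave a ligand median of -1.28, in place of -0.59, since it left out dll4. Without genes at 0 in a library, 1 member was higher and 9 were lower, where 17.8% of all genes were higher and 16.5% lower. The her, hes and hey median was then -0.26. A 1.5-fold call gave 10 higher and 16 lower of the 36 members, where 31.51% of all genes were higher and 34.55% lower. It gave 13 higher and 13 lower of the 36 other pathway genes. A 4-fold call gave 3 higher and 8 lower of the 36 members, where 1114 of all 9685 genes were higher and 1398 lower. It gave 2 higher and 4 lower other pathway genes. Scaling to equal sums without rn7sk moved the median of all genes to -0.20, from -0.04 as deposited, and the members' median to -0.48. Of the members, dlb was no longer called, and hey2 and lfng became called. The other pathway genes, nrarpa among those no longer called, went from 6 higher and 9 lower to 4 higher and 11 lower. A pseudocount of 5 FPKM ended the calls on jag1a, jag1b and numbl, and one of 0.1 FPKM added hey2. Leaving out mibp and mibp2, or summing her15.1 and her15.2, were chosen after seeing the data. The first left 4 higher and 13 lower members. The second left 4 higher and 12 lower members, 8 lower her, hes and hey genes, and a median of -1.34 for that family. No library could be left out with 1 per fraction. No paired analysis was possible because each fraction has 1 library. Unknown depth limits the low values most.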

Other observations

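In the reference gene order, 6 pairs of members lie next to each other. Her1 and her7 had log2 ratios of -2.13 and -0.26, her11 and her5 of -0.03 and -3.11, and her8.2 and her13 of -3.29 and -1.70. Her2 and her15.1 stood at -2.80 and -6.01, and her15.1 and her15.2 at -6.01 and 0.83. Her12, at -5.76, lies beside her4.2, which was listed at 0 in both libraries. The member of the rule outside the pathway that was measured, mibp2, was at 55.6 FPKM in EGFP-positive and 29.6 FPKM in EGFP-negative cells, a log2 ratio of 0.89.

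The calls are read here by level. Of 6 members whose higher value was 1 to 10 FPKM, 3 were called lower, where 35.5% of all genes at that level were. Of 16 members at 10 to 50 FPKM, 4 were lower, or 25.0%, where 26.8% of all genes were. Of 5 members at 50 to 100 FPKM, 3 were lower (her2, her12 and her15.1), where 22.8% of all genes were. Her12 and her15.1 were listed at 0 in EGFP-positive cells, and the call on her15.1 does not hold for its sum with her15.2. The other members at this level were her15.2 and mibp2, which is not part of the pathway. Of 9 members at 100 to 500 FPKM, 3 were lower (her1, hes6 and her13), where 15.9% of all genes at that level were.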
